A study of Mus musculus with 12 samples.

Results

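Cholesterol and fatty acid synthesis genes were followed across splenic lymphocytes of the mouse. The list held 34 genes, chosen by name for their place in sterol synthesis, in its control by SREBP and LXR, and in fatty acid synthesis, and 32 of them were measured among the 19937 genes of the arrays. Acat2 and Nr1h2 had no probe set with a single gene symbol and are not analysed here. The mean of 31 of the 32 genes lay above the background of 5.21 log2, the 95th percentile of 1027 olfactory receptor genes, and Nr1h3 lay below it. All cells came from C57Bl/6 x FVB mice, with 4 labelled groups of 3 arrays. Resting B cells (CD43 negative) and resting T cells (B220 negative) were taken from the spleen on day 0. Activated B cells were cultured for 4 days with antibody to CD40 and IL-4, and activated T cells for 4 days with antibodies to CD3 and CD28 and IL-2. Values are log2 RMA expression, so that a step of 1 is a doubling, and RMA brings the arrays to a common distribution, which hides any shift of most genes in the same direction.

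Cells make cholesterol from acetyl-CoA through mevalonate, isoprenoids, squalene and lanosterol. When sterol in the membrane of the endoplasmic reticulum is low, SCAP escorts the SREBP transcription factors to the Golgi, where they are cut and released to switch on these enzymes; when sterol is plentiful, the INSIG proteins hold SCAP back. Oxysterols activate the nuclear receptors LXRα and LXRβ, which turn on the exporters ABCA1 and ABCG1 and the ubiquitin ligase MYLIP, which removes lipoprotein receptors from the surface. Lymphocytes that enter division build new membrane, and both sterol and fatty acid synthesis are known to accompany blast growth.

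The B and T cell markers went against the labels in all 4 groups. Each array is therefore named by its label, as in resting-B-labelled, and each direction follows the labels. All 8 T cell markers were higher in the resting-B-labelled arrays than in the resting-T-labelled ones, and all 8 were higher in the activated-B-labelled ones than in the activated-T-labelled ones. All 7 measured B cell markers were lower in the activated-B-labelled arrays than in the activated-T-labelled ones. Between the resting-B- and resting-T-labelled arrays 6 of the 7 were lower, and Bank1 did not pass the test (-0.64 on the log2 scale, adjusted p = 0.124 from limma), with overlapping groups. Of 4 plasma cell markers, Jchain was higher (2.55 on the log2 scale, adjusted p = 3.01e-06 from limma) and 2 were lower in that comparison. Between the arrays labelled activated, Jchain was lower in those labelled B (-1.28) and 2 were higher. Over all genes, 16.1% were called higher and 19.0% lower between the arrays labelled resting, against 21.8% and 18.9% between those labelled activated. The 5 measured markers of dividing cells had a summed level of 12.56 to 12.57 log2 in the activated-B-labelled arrays and 12.09 to 12.15 log2 in the resting-T-labelled ones, against 8.85 to 9.30 log2 in the resting-B-labelled ones and 8.59 to 9.05 log2 in the activated-T-labelled ones. The fit was made with limma over the 12 arrays, and a gene was called at a Benjamini-Hochberg adjusted p under 0.05 over all genes. Whether the 3 samples of a group came from different mice is not given in the sources used here, so the p-values cover the variation between arrays alone, which may be technical. In RNA of whole populations, a smaller share of cells with a transcript and less of it per cell cannot be told apart.

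All 16 measured sterol synthesis genes were higher in the activated-B-labelled arrays than in the resting-B-labelled ones, with a median log2 fold change of 1.93 and a range from 0.71 to 2.63. Over all genes, 19.7% were called higher and 16.7% lower in that comparison, and the median was -0.02. Between the activated- and resting-T-labelled arrays, the same 16 genes were all lower in those labelled activated, with a median of -1.93 and a range from -3.44 to -0.41, where 17.8% of all genes were called lower and 15.9% higher, with a median of 0.02. The groups did not overlap for any of the 16 genes in either comparison. Over all genes, the groups did not overlap, with the arrays labelled activated above, in 23.9% in the labelled B cells, and with them below in 21.1% in the labelled T cells. The high sterol groups were thus the activated-B- and resting-T-labelled arrays, which also carried the high levels of dividing cell markers, and the part of these markers in the sterol genes was not tested.

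**Figure D1:**
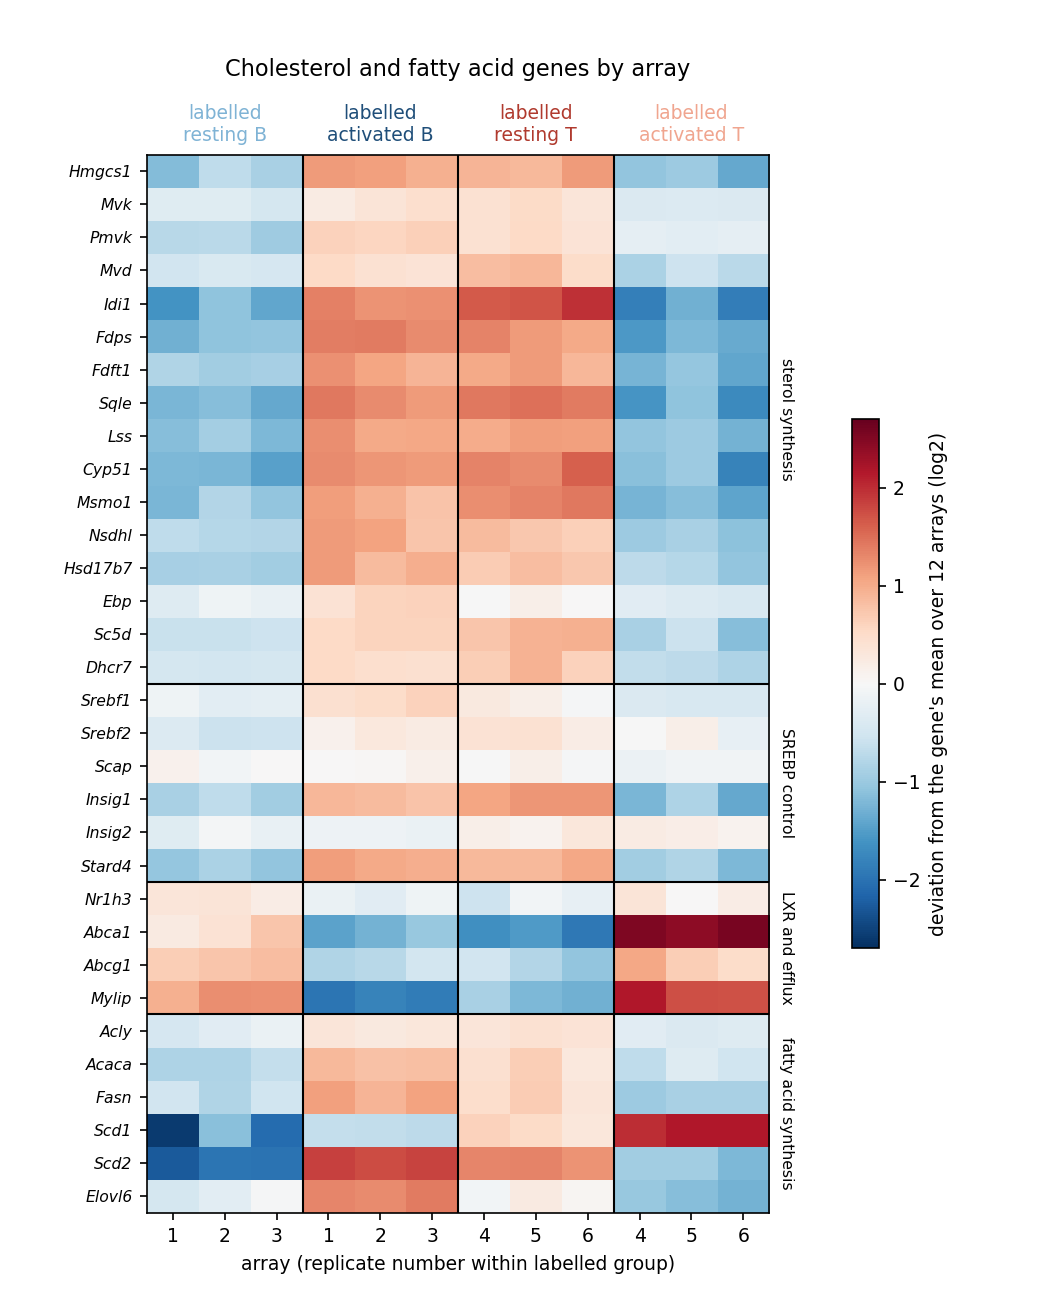
Deviation of each measured gene from its own mean over the 12 arrays (colour, log2), with the 32 genes in rows by role and the arrays in columns by labelled group and replicate number. The 16 sterol synthesis genes are above their mean in the activated-B- and resting-T-labelled arrays and below it in the others, save Ebp at its mean on resting-T-labelled replicate 4, with the reverse for Abca1, Abcg1 and Mylip, and Scd1 follows neither.

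Among the early enzymes, Hmgcs1, which makes HMG-CoA, was at 7.77, 8.24 and 8.05 log2 in the resting-B-labelled arrays and 10.09, 10.04 and 9.89 log2 in the activated-B-labelled ones. It was at 9.84, 9.80 and 10.09 log2 in the resting-T-labelled arrays and 7.88, 7.95 and 7.56 log2 in the activated-T-labelled ones. The groups compared did not overlap, with log2 fold changes of 1.99 (standard error 0.13, adjusted p = 3.36e-09 from limma) in the labelled B cells and -2.12 (standard error 0.13, adjusted p = 1.63e-09 from limma) in the labelled T cells. The kinases and the decarboxylase that turn mevalonate into isopentenyl diphosphate differed less. The log2 fold changes of Mvk, Pmvk and Mvd were 0.71, 1.42 and 0.91 among the labelled B cells and, among the labelled T cells, -0.80, -0.70 and -1.46.

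Idi1, which interconverts the isoprenoid building blocks, had the largest differences of the 16 genes in both comparisons. It was at 6.87, 7.39 and 7.07 log2 in the resting-B-labelled arrays and 9.84, 9.68 and 9.71 log2 in the activated-B-labelled ones, a difference of 6.19-fold (log2 fold change 2.63, standard error 0.15, adjusted p = 5.86e-10 from limma). In the resting-T-labelled arrays it was at 10.13, 10.19 and 10.45 log2 and in the activated-T-labelled ones at 6.64, 7.18 and 6.61 log2, a difference of 10.9-fold in the other direction (log2 fold change -3.44, standard error 0.15, adjusted p = 2.77e-11 from limma). No array of the 12 lay between 7.39 and 9.68 log2. Fdps, which joins these units into farnesyl diphosphate, the branch point to prenylation, showed a similar separation. Its levels were 6.88, 7.08 and 7.11 log2 in the resting-B-labelled arrays, 9.55, 9.57 and 9.45 log2 in the activated-B-labelled ones, 9.51, 9.33 and 9.19 log2 in the resting-T-labelled ones and 6.63, 6.97 and 6.82 log2 in the activated-T-labelled ones. The low groups shared a range from 6.63 to 7.11 log2, and no array of a high group was under 9.19 log2.

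The enzymes committed to sterols behaved alike. Sqle, the squalene epoxidase, an oxygen-dependent control point of the pathway, was at 6.44, 6.53 and 6.28 log2 in the resting-B-labelled arrays and 9.09, 8.95 and 8.82 log2 in the activated-B-labelled ones. In the resting- and activated-T-labelled arrays it was at 9.10, 9.17 and 9.07 log2 and 6.07, 6.59 and 5.96 log2. The log2 fold changes were 2.53 (standard error 0.14) and -2.91 (standard error 0.14), with adjusted p = 2.16e-10 and 4.85e-11 from limma. Fdft1, which makes squalene, and Lss, which closes the ring to lanosterol, had log2 fold changes of 1.95 and 2.20 among the labelled B cells and, among the labelled T cells, -2.26 and -2.18. Of the genes for the removal of the methyl groups of lanosterol, Cyp51 differed by 2.50 and -2.71, Msmo1 by 1.99 and -2.62, Nsdhl by 1.74 and -1.73 and Hsd17b7 by 1.90 and -1.59 on the log2 scale, each value for the labelled B cells followed by that for the labelled T cells. At the last steps Ebp, the sterol isomerase, differed by 0.75 and -0.41, the desaturase gene Sc5d by 1.17 and -1.75, and Dhcr7, which completes cholesterol, by 0.96 and -1.48.

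**Figure D2:**
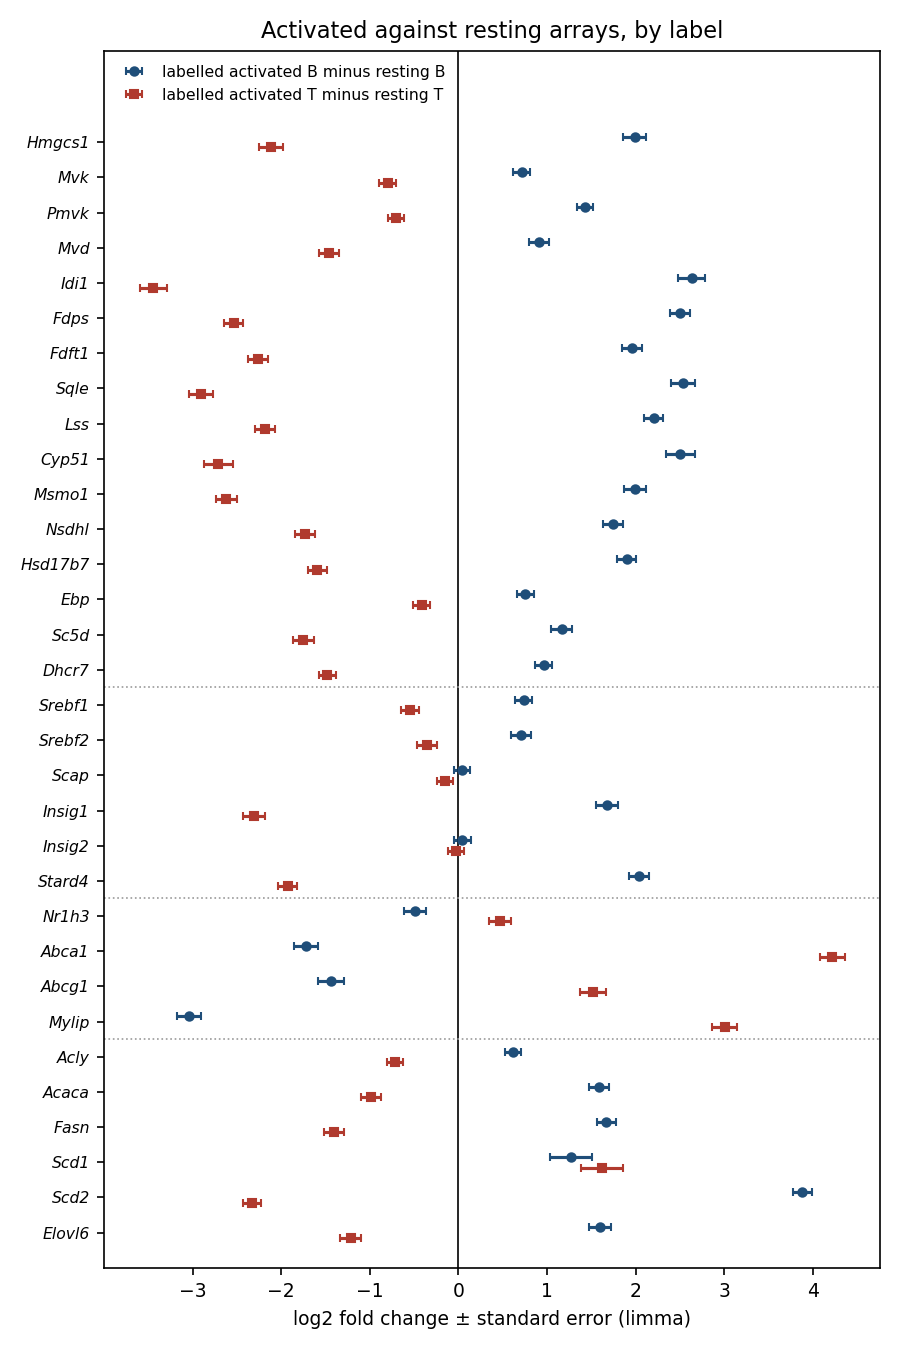
Log2 fold change from limma with its standard error (x axis) for each of the 32 genes (y axis, dotted lines between the roles), as labelled activated minus labelled resting in the B cells (circles) and in the T cells (squares). The values of the 16 sterol synthesis genes lie between 0.71 and 2.63 in the labelled B cells and between -3.44 and -0.41 in the labelled T cells, and those of Scd1 are positive in both. The values of Nr1h3, and that of Abca1 in the labelled T cells, involve groups with a mean below the background.

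The sequences before the start sites of the sterol genes were examined because these genes moved together. RefSeq promoters (build GRCm38.p6, the 250 bases before each annotated start, both strands searched) were at hand for 14 of the 17 listed sterol synthesis genes, Acat2 among them, and those of Fdps, Fdft1 and Sqle were not used here. The CCAAT box, the letters CCAAT bound by NF-Y, which is known to work beside SREBP, was present before at least 1 start site of 13 of these 14 genes. It was held by 37.5% of all 27025 genes with a promoter, and by 33.8% of all 32851 promoters. Of the SREBP control genes 4 of 5 held it, and of the LXR and efflux genes and of the fatty acid synthesis genes 1 of 4 each, Mylip and Fasn. A strict form of the sterol regulatory element, TCACNCCAC, where N is any base, was found before Hmgcs1 and no other of the 14 sterol genes, and before 1.22% of all genes. A shorter form, CACNCCAC, was found before Hmgcs1 and Acat2 of the sterol genes, Insig1 of the SREBP control genes, and 6.05% of all genes. It was before none of the LXR, efflux and fatty acid synthesis genes with a promoter. A match describes the letters and is not a site shown to be bound.

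Promoters that show these features are those of Hmgcs1 (chr13:119690101-119690350, plus strand), with the sterol regulatory element and 3 CCAAT boxes, and of Mvk (chr5:114444019-114444268, plus strand), with 5 CCAAT boxes. That of Abca1 (chr4:53159896-53160145, minus strand) is shown for contrast and holds neither motif. Each is written 5′ to 3′ on the strand of the gene and ends at the base before the start, with the CCAAT boxes (ATTGG on the other strand) and the sterol regulatory element in capitals.
Hmgcs1: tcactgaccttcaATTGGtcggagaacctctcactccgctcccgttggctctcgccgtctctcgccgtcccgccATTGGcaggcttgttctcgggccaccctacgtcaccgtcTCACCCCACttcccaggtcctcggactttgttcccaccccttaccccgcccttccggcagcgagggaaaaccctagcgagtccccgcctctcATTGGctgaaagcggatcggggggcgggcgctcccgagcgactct
Mvk: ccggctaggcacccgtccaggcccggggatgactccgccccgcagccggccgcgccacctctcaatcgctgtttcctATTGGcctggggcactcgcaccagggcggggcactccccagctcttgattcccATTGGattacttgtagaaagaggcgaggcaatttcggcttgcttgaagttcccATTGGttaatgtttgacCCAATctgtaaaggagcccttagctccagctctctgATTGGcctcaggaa
Abca1: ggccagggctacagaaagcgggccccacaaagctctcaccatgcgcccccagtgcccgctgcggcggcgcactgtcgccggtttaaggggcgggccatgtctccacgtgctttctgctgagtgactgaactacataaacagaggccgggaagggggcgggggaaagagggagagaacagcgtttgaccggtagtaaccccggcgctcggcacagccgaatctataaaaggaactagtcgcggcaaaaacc

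Of the 6 SREBP control genes, 4 were higher in the activated-B-labelled arrays than in the resting-B-labelled ones, and the same 4 were lower in the activated-T-labelled ones than in the resting-T-labelled ones. Over all genes, 19.7% were called higher in the former comparison and 17.8% lower in the latter. Insig1, itself a target of SREBP that feeds back on it, was at 8.34, 8.54 and 8.28 log2 in the resting-B-labelled arrays and 10.11, 10.08 and 9.99 log2 in the activated-B-labelled ones. In the resting-T-labelled ones it was at 10.30, 10.42 and 10.42 log2 and in the activated-T-labelled ones at 7.99, 8.39 and 7.84 log2. The groups compared did not overlap, and the log2 fold changes were 1.67 (standard error 0.12, adjusted p = 1.06e-08 from limma) and -2.31 (standard error 0.12, adjusted p = 2.12e-10 from limma). Stard4, a carrier of cholesterol between membranes, was at 7.48, 7.67 and 7.47 log2, 9.66, 9.56 and 9.50 log2, 9.42, 9.40 and 9.58 log2 and 7.58, 7.72 and 7.33 log2 in the resting-B-, activated-B-, resting-T- and activated-T-labelled arrays. Its differences of 2.04 and -1.93 on the log2 scale were within the range of those of the sterol synthesis enzymes.

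The fold changes of the transcription factor genes were smaller than those of Insig1. Srebf1, which encodes the SREBP form known for fatty acid synthesis, was at 7.80, 7.65 and 7.66 log2 in the resting-B-labelled arrays and 8.36, 8.42 and 8.54 log2 in the activated-B-labelled ones, and at 8.20, 8.10 and 7.89 log2 and 7.55, 7.50 and 7.50 log2 in the resting- and activated-T-labelled arrays. The groups did not overlap, with log2 fold changes of 0.73 and -0.55 (adjusted p = 1.07e-05 and 0.000247 from limma). Srebf2, which encodes the form known for sterol synthesis, was at 8.91, 8.70 and 8.72 log2 and 9.39, 9.56 and 9.50 log2 in the resting- and activated-B-labelled arrays. In the resting- and activated-T-labelled arrays it was at 9.67, 9.68 and 9.47 log2 and 9.27, 9.43 and 9.05 log2. The log2 fold change was 0.71 in the labelled B cells (adjusted p = 5.37e-05 from limma) and -0.36 in the labelled T cells (adjusted p = 0.0174 from limma). The latter call was lost without labelled resting T replicate 4 or 5 or labelled activated T replicate 6 (adjusted p = 0.0609, 0.0652 and 0.101 from limma) and with quantile normalization (adjusted p = 0.0678).

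Insig2 and Scap did not pass the test in either comparison. Insig2, the other retention protein that is not known as an SREBP target in most cells, was at 7.80, 8.07 and 7.94 log2 in the resting-B-labelled arrays, 7.99, 8.00 and 7.96 log2 in the activated-B-labelled ones, 8.30, 8.24 and 8.44 log2 in the resting-T-labelled ones and 8.36, 8.31 and 8.24 log2 in the activated-T-labelled ones. The log2 fold changes were 0.04 and -0.03 (standard error 0.09, adjusted p = 0.777 and 0.882 from limma). Its arrays fell by labelled lineage, with every array labelled B at or below 8.07 log2 and every array labelled T at or above 8.24 log2. It was lower in the resting-B-labelled arrays than in the resting-T-labelled ones (-0.39 on the log2 scale, adjusted p = 0.00309 from limma) and lower in the activated-B-labelled ones than in the activated-T-labelled ones (-0.32, adjusted p = 0.0109 from limma, and 0.142 with each array centred on its median). Scap, the escort protein gene, had group means between 7.78 ± 0.03 (SD, n = 3) log2 in the activated-T-labelled arrays and 7.95 ± 0.07 log2 in the activated-B-labelled ones, with log2 fold changes of 0.04 and -0.15 (standard error 0.09, adjusted p = 0.796 and 0.243 from limma).

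All 6 fatty acid synthesis genes were higher in the activated-B-labelled arrays than in the resting-B-labelled ones, with a median log2 fold change of 1.59. In the activated-T-labelled arrays, 5 were lower than in the resting-T-labelled ones and 1, Scd1, was higher, with a median of -1.10. Over all genes, 19.7% were called higher in the labelled B cells, and 17.8% lower and 15.9% higher in the labelled T cells. Fasn, the synthase that builds palmitate, was at 7.91, 7.61 and 7.90 log2 in the resting-B-labelled arrays and 9.55, 9.36 and 9.51 log2 in the activated-B-labelled ones, and at 8.90, 9.11 and 8.76 log2 and 7.45, 7.56 and 7.55 log2 in the resting- and activated-T-labelled arrays. These groups did not overlap, and the log2 fold changes were 1.67 and -1.40 (standard error 0.11 for both, adjusted p = 3.08e-09 and 2.87e-08 from limma). Acaca, the carboxylase that makes malonyl-CoA, was at 7.21, 7.21 and 7.39 log2, 8.90, 8.82 and 8.85 log2, 8.47, 8.70 and 8.33 log2 and 7.36, 7.69 and 7.51 log2 in the resting-B-, activated-B-, resting-T- and activated-T-labelled arrays, with log2 fold changes of 1.59 and -0.98. Acly, which supplies acetyl-CoA from citrate, differed by 0.62 and -0.72.

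The stearoyl-CoA desaturases, which place the double bond of oleate, had different patterns. Scd2 was at 7.54, 7.84 and 7.82 log2 in the resting-B-labelled arrays and 11.64, 11.56 and 11.63 log2 in the activated-B-labelled ones, a 14.7-fold difference and the largest of the 32 genes in that comparison (log2 fold change 3.88, standard error 0.11, adjusted p = 1.8e-13 from limma). It was at 11.12, 11.15 and 11.02 log2 in the resting-T-labelled arrays and 8.87, 8.86 and 8.58 log2 in the activated-T-labelled ones (log2 fold change -2.33, standard error 0.11, adjusted p = 3.51e-11 from limma). Scd2 thus had the same high and low groups as the sterol genes. The 2 high groups also differed from each other, as did the 2 low ones (adjusted p = 0.00148 and 1.05e-06 from limma). Scd1 was instead at 6.68, 8.15 and 7.19 log2 in the resting-B-labelled arrays, 8.63, 8.61 and 8.58 log2 in the activated-B-labelled ones, 9.90, 9.80 and 9.58 log2 in the resting-T-labelled ones and 11.27, 11.43 and 11.44 log2 in the activated-T-labelled ones. No group overlapped another, and all 6 pairs of groups passed the test, with 16.5-fold between the resting-B- and activated-T-labelled arrays (log2 fold change -4.04, standard error 0.24, adjusted p = 1.56e-09 from limma). Scd1 was higher in the arrays labelled activated than in those labelled resting, by 1.27 in the labelled B cells and 1.62 in the labelled T cells on the log2 scale. The test of the difference between these values did not pass (difference -0.35, standard error 0.34, adjusted p = 0.446 from limma, and a difference of 0.05 without labelled resting B replicate 2).

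The levels of B cell markers moved with Scd1 across some groups. Their summed level over 7 genes was 14.20 to 14.39 log2 in the activated-T-labelled arrays, 12.85 to 13.20 log2 in the resting-T-labelled ones, 10.31 to 11.65 log2 in the resting-B-labelled ones and 8.00 to 8.46 log2 in the activated-B-labelled ones, where Cd79a, Ms4a1 and Bank1 lay at or below background. The order of the last pair of groups was the reverse of that of Scd1. Within the resting-B-labelled arrays, replicate 2 was highest both in Scd1 and in Cd79a, which was at 7.88, 8.85 and 8.09 log2. That array was also highest in each macrophage marker, such as Csf1r (7.72, 8.14 and 7.26 log2) and Slc40a1 (8.32, 9.59 and 7.90 log2). It was highest for 10 of the 16 sterol synthesis genes as well. The part of B cells and macrophages in the level of Scd1 was not tested.

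Elovl6, which lengthens palmitate to stearate, also set the high groups apart from each other. It was at 6.97, 7.16 and 7.42 log2 in the resting-B-labelled arrays, 8.77, 8.72 and 8.85 log2 in the activated-B-labelled ones, 7.37, 7.69 and 7.50 log2 in the resting-T-labelled ones and 6.43, 6.31 and 6.18 log2 in the activated-T-labelled ones. The activated-B-labelled arrays were 2.4-fold above the resting-T-labelled ones (log2 fold change 1.26, standard error 0.12, adjusted p = 3.42e-07 from limma), and the resting-B-labelled ones were above the activated-T-labelled ones by 0.88 on the log2 scale (adjusted p = 2.72e-05 from limma).

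**Figure D3:**
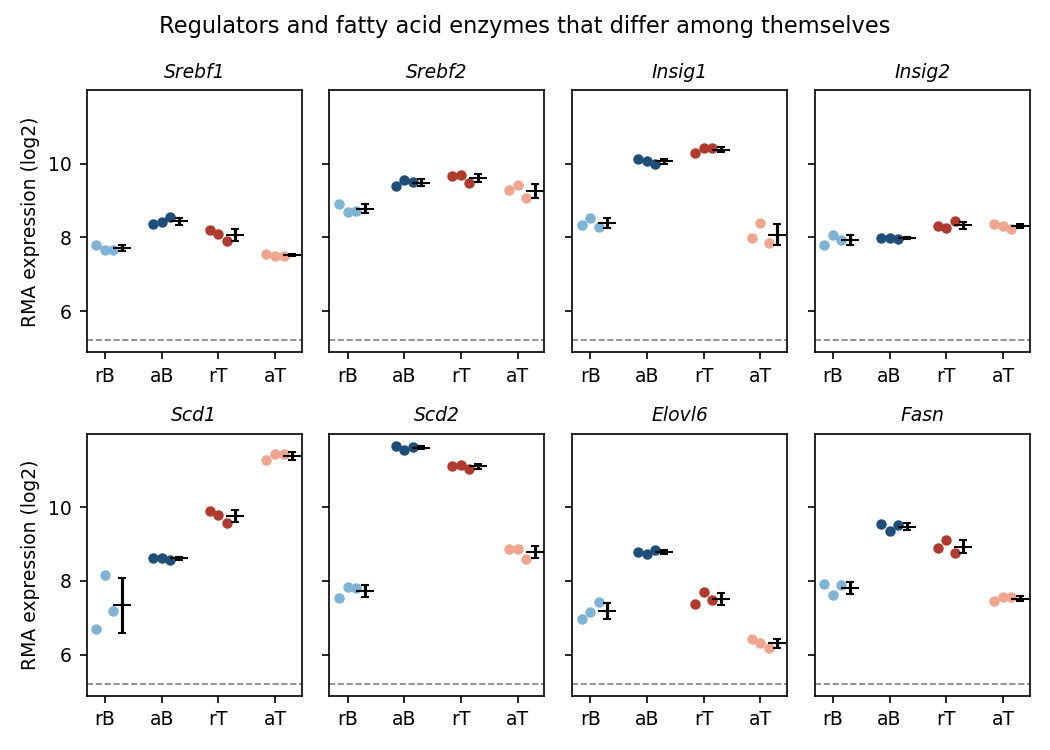
RMA expression (log2, y axis) of 8 genes by label, as resting B (rB), activated B (aB), resting T (rT) and activated T (aT), with a point for each array, a black mark and bar for the mean and SD of 3 arrays, and the background of 5.21 log2 as a dashed line. Insig1 follows the sterol genes and Insig2 does not, and Scd1 is highest in the activated-T-labelled arrays, where Scd2 is between its other levels.

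The 4 measured LXR and efflux genes ran opposite to the synthesis genes. All 4 were lower in the activated-B-labelled arrays than in the resting-B-labelled ones, with a median of -1.58, and all 4 were higher in the activated-T-labelled ones than in the resting-T-labelled ones, with a median of 2.26. Over all genes, 16.7% were called lower in the former comparison and 15.9% higher in the latter. Abca1, which loads cholesterol and phospholipid onto apolipoproteins, was at 7.13, 7.28 and 7.63 log2 in the resting-B-labelled arrays and 5.44, 5.60 and 5.85 log2 in the activated-B-labelled ones. It was at 5.22, 5.35 and 4.95 log2 in the resting-T-labelled arrays, where its mean was not above the background, and 9.41, 9.29 and 9.45 log2 in the activated-T-labelled ones. The groups did not overlap, and the log2 fold change in the labelled B cells was -1.72 (standard error 0.14, adjusted p = 3.32e-08 from limma). In the labelled T cells Abca1 was at least 17.5-fold higher in the activated-T-labelled arrays, with each low array taken at its own level or the background, whichever was higher (fitted log2 fold change 4.22, adjusted p = 1.4e-12 from limma).

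Abcg1, the exporter to mature lipoprotein particles, was at 8.66, 8.75 and 8.83 log2, 7.18, 7.26 and 7.50 log2, 7.49, 7.20 and 6.95 log2 and 9.04, 8.66 and 8.50 log2 in the resting-B-, activated-B-, resting-T- and activated-T-labelled arrays. It held a single high level and a single low level, with log2 fold changes of -1.43 and 1.52 (adjusted p = 5.83e-07 and 3.37e-07 from limma). Mylip was at 8.70, 8.99 and 8.96 log2 and 5.76, 5.93 and 5.84 log2 in the resting- and activated-B-labelled arrays and at 6.87, 6.52 and 6.45 log2 and 9.91, 9.47 and 9.46 log2 in the resting- and activated-T-labelled arrays. Its log2 fold changes of -3.04 and 3.001 (standard error 0.14 for both, adjusted p = 2.46e-11 and 3.45e-11 from limma) were larger than those of Abcg1 in both comparisons. Nr1h3, which encodes LXRα, was near the background, at 5.30, 5.31 and 5.17 log2, 4.80, 4.66 and 4.85 log2, 4.42, 4.90 and 4.74 log2 and 5.32, 4.97 and 5.17 log2 in the same order of groups. It passed the test in both comparisons (adjusted p = 0.00413 and 0.00593 from limma), but the levels are too low to give a size.

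Macrophages of the spleen are rich in ABCA1 and LXRα, and their markers and those of dendritic cells moved with these genes in part. Of 13 macrophage markers, 12 were lower and 1, Axl, was higher in the activated-B-labelled arrays than in the resting-B-labelled ones, and 9 were higher in the activated-T-labelled ones than in the resting-T-labelled ones. Over all genes, 16.7% were called lower and 19.7% higher in the former comparison, and 15.9% higher in the latter. Their summed level was 10.87 to 11.79 log2 in the resting-B-labelled arrays, 9.09 to 9.19 log2 in the activated-B-labelled ones, 9.85 to 10.13 log2 in the resting-T-labelled ones and 10.71 to 11.45 log2 in the activated-T-labelled ones. At or below the background were 8 of the 13 in the activated-B-labelled arrays and 5 in the resting-T-labelled ones, Slc40a1, Vcam1 and Spic among both. Of 6 dendritic cell markers, all 6 were lower in the activated-B-labelled arrays, and 4 were higher and 1, Zbtb46, lower in the activated-T-labelled ones, each against the arrays labelled resting. The shares over all genes were 16.7% lower in the labelled B cells, and 15.9% higher and 17.8% lower in the labelled T cells. Their summed level was 8.76 to 9.05 log2 in the resting-B-labelled arrays, 7.49 to 7.69 log2 in the activated-B-labelled ones, 8.08 to 8.26 log2 in the resting-T-labelled ones and 8.69 to 8.98 log2 in the activated-T-labelled ones, with Xcr1, Clec9a and Siglech at or below the background in the activated-B- and resting-T-labelled arrays. Abca1 was 4.11-fold lower in the resting-B-labelled arrays than in the activated-T-labelled ones (log2 fold change -2.04, standard error 0.14, adjusted p = 8.05e-09 from limma). In the same comparison 1 macrophage marker, Lyz2, was higher and none lower in the resting-B-labelled arrays, with a median difference of 0.20 log2 over the 13. Over all genes, 9.68% were called higher and 8.82% lower there. The part of macrophages and dendritic cells in the levels of Abca1, Abcg1, Mylip and Nr1h3 was not tested.

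To set synthesis against LXR targets, the mean deviation of the 16 sterol synthesis genes from their own means was compared with that of Abca1, Abcg1 and Mylip on each array. The difference between the 2 was 2.17 ± 0.20 (SD, n = 3) log2 in the activated-B-labelled arrays and 2.15 ± 0.21 log2 in the resting-T-labelled ones. It was -1.63 ± 0.16 log2 in the resting-B-labelled arrays and -2.68 ± 0.24 log2 in the activated-T-labelled ones. The former pair of groups shared their range, from 1.93 to 2.38 log2. The latter pair did not overlap, with -1.82 to -1.52 log2 in the resting-B-labelled arrays and -2.90 to -2.43 log2 in the activated-T-labelled ones. The LXR target side carried most of that gap, at 0.79 ± 0.15 log2 and 1.70 ± 0.18 log2, against -0.85 ± 0.07 log2 and -0.98 ± 0.15 log2 for synthesis. Of the LXR targets, the exporter gene Abca1 and the ligase gene Mylip were called between these groups, and the exporter gene Abcg1 was not. Because both means are taken within an array, centring of the arrays does not alter their difference. The mean of Abca1 in the resting-T-labelled arrays was not above the background, which limits the LXR target side there.

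**Figure D4:**
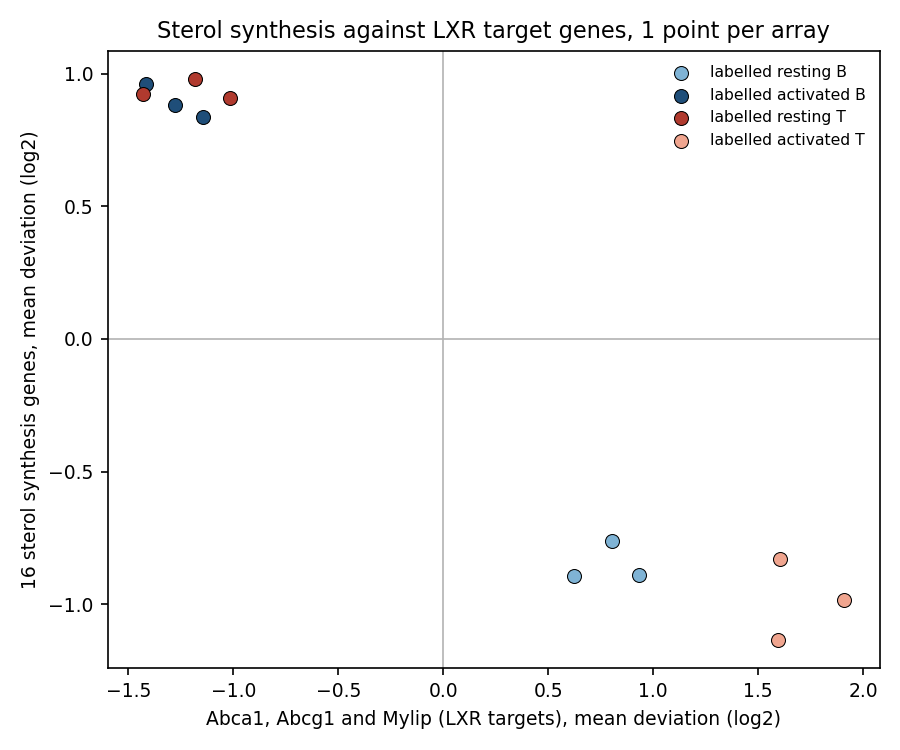
Mean deviation from each gene's own mean (log2) of the 16 sterol synthesis genes (y axis) against that of Abca1, Abcg1 and Mylip (x axis), with a point for each of the 12 arrays coloured by labelled group. The activated-B- and resting-T-labelled arrays lie together at high synthesis and low LXR target levels, and the activated-T-labelled ones lie further to the right than the resting-B-labelled ones.

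The 2 groups with high synthesis had smaller differences between them. Between the activated-B- and resting-T-labelled arrays, 7 of the 32 genes were called higher and 5 lower, where 13.0% and 9.93% of all genes were. Of the sterol synthesis genes, Ebp was higher (0.48 on the log2 scale) and Idi1 and Msmo1 were lower (-0.51 and -0.39) in the activated-B-labelled arrays, and the median of the 16 was -0.02. Both lower calls were lost in some fits without a single array (labelled activated B replicate 2 or 3 or labelled resting T replicate 6 for both, and labelled resting T replicate 5 for Msmo1), with adjusted p up to 0.159, and that of Idi1 with the mean of its probe sets (log2 fold change -0.31, adjusted p = 0.295 from limma). Higher in the activated-B-labelled arrays were the fatty acid genes Elovl6, Fasn (0.55), Scd2 (0.51) and Acaca (0.36), with Srebf1 (0.38) and Abca1 (at least 0.37, its mean in the resting-T-labelled arrays being below the background). Lower were Scd1 (-1.15), Mylip (-0.77) and Insig2 (-0.34). The calls of Acaca and Abca1 (without labelled activated B replicate 2 or 3 or labelled resting T replicate 6, and for Acaca also without labelled activated B replicate 1 or labelled resting T replicate 4) and of Insig2 (without labelled resting T replicate 6) were lost, with adjusted p up to 0.129.

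The 2 groups with low synthesis differed in part of the LXR and efflux genes and in the desaturases. Between the resting-B- and activated-T-labelled arrays, 2 of the 32 genes were called higher and 7 lower, where 9.68% and 8.82% of all genes were. Lower in the resting-B-labelled arrays were Scd1, Abca1, Scd2 (-1.04 on the log2 scale, adjusted p = 1.05e-06 from limma), Mylip (-0.73), Pmvk (-0.55), Srebf2 (-0.48) and Insig2 (-0.36). Higher were Elovl6 and Fdft1 (0.36), the latter at 6.85, 6.72 and 6.77 log2 against 6.39, 6.62 and 6.26 log2. The call of Fdft1 was lost with the mean of its probe sets (log2 fold change 0.17, adjusted p = 0.53 from limma) and without any array of these groups but labelled activated T replicate 5 (adjusted p up to 0.156), and that of Insig2 without labelled resting B replicate 1 (adjusted p = 0.0504). Abcg1 did not pass the test between these groups, at means of 8.75 and 8.73 log2 (adjusted p = 0.967 from limma). Sterol synthesis had a median difference of 0.22 log2, with 1 gene higher and 1 lower.

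Across the labelled lineages in the same labelled state, the differences were large again. These pairs also differed in the 5 measured dividing cell markers, with a median of -3.62 log2 for resting-B- minus resting-T-labelled arrays. For activated-B- minus activated-T-labelled arrays that median was 4.26 log2. The part of division in the differences below was not tested. Between the resting-B- and resting-T-labelled arrays, 4 of the 32 genes were higher and 27 lower, where 16.1% and 19.0% of all genes were, and the 16 sterol synthesis genes were all lower with a median of -1.77. The calls of Ebp (-0.27) and Elovl6 (-0.33) there were lost without labelled resting B replicate 1 or labelled resting T replicate 5 or 6 (for Ebp also without labelled resting B replicate 3 or labelled activated T replicate 5, for Elovl6 also without labelled resting B replicate 2), with adjusted p up to 0.185. Between the activated-B- and activated-T-labelled arrays, 24 were higher and 6 lower, where 21.8% and 18.9% of all genes were, and the 16 sterol genes were all higher with a median of 2.10. The 6 lower genes were Abca1 (-3.76), Mylip (-3.77), Abcg1 (-1.42), Scd1 (-2.77), Insig2 and Nr1h3, the last with both means below the background and at adjusted p = 0.135 with median centring, 0.0774 without labelled activated B replicate 2 and 0.0897 without labelled activated T replicate 4. These comparisons share arrays with those within the labelled lineages. In the test of whether the labelled activation differed between the labelled lineages, 25 of the 32 genes were called with a positive and 4 with a negative difference, where 21.9% and 20.9% of all genes were, and Scap, Insig2 and Scd1 did not pass.

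In 14 of the 16 sterol synthesis genes the resting-B-labelled arrays stood next above the activated-T-labelled ones, and in Pmvk and Hsd17b7 below them. In 13 of the 16 the neighbours labelled activated B and resting T did not pass the test, and in 14 the neighbours labelled resting B and activated T did not. Within a group the same array often ranked highest for many of the genes. In the activated-T-labelled arrays, replicate 5 was the highest for 12 of the 16 genes and replicate 6 the lowest for 12, with mean deviations from the group of 0.15 and -0.15 log2. In the activated-B-labelled arrays, replicate 1 was the highest for 11 and replicate 3 the lowest for 9, in the resting-B-labelled ones replicate 2 was the highest for 10, and in the resting-T-labelled ones replicate 5 was the highest for 9. The median SD of the 32 genes was 0.12 log2 in the resting-B-labelled arrays, 0.09 log2 in the activated-B-labelled ones, 0.12 log2 in the resting-T-labelled ones and 0.16 log2 in the activated-T-labelled ones, and the highest was 0.75 log2, for Scd1 in the resting-B-labelled ones.

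Further genes of these pathways, from lists of non-members, followed the enzymes in part. Of 10 measured sterol genes (13 listed), 5 were higher and 2 lower in the activated-B-labelled arrays than in the resting-B-labelled ones, where 19.7% and 16.7% of all genes were. In the activated-T-labelled arrays 2 were higher and 5 lower than in the resting-T-labelled ones, where 15.9% and 17.8% of all genes were, so that the 2 called against the enzymes in each comparison were near the share over all genes. Tmem97, a sterol-responsive membrane protein, differed by 2.83 and -2.72 on the log2 scale, and the lipoprotein receptor gene Scarb1 by 1.65 and -1.27. The sterol reductase gene Tm7sf2 differed by 0.72 and -0.99. The genes called against the enzymes in both comparisons were Ggps1, which draws isoprenoids to prenylation (-0.41 and 0.56), and the SREBP protease gene Mbtps1 (-0.52 and 0.39). Npc2, a carrier of lysosomal cholesterol, was at 9.60 ± 0.09 (SD, n = 3) log2 in the resting-B-labelled arrays, 9.91 ± 0.22 log2 in the activated-B-labelled ones, 8.92 ± 0.05 log2 in the resting-T-labelled ones and 8.02 ± 0.10 log2 in the activated-T-labelled ones. It was higher in the arrays labelled B than in those labelled T in both labelled states. Among the arrays labelled T it was also lower in those labelled activated.

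Of 13 measured fatty acid genes outside the member list (14 listed), 9 were higher and 1 lower in the activated-B-labelled arrays, and 8 were lower and none higher in the activated-T-labelled ones, each against the arrays labelled resting, where the shares over all genes were those just given. Fads2, the delta-6 desaturase that starts the synthesis of long polyunsaturated fatty acids, was at 5.40, 5.33 and 5.46 log2 in the resting-B-labelled arrays, 9.18, 8.85 and 8.89 log2 in the activated-B-labelled ones, 9.04, 9.20 and 9.11 log2 in the resting-T-labelled ones and 4.80, 5.15 and 5.51 log2 in the activated-T-labelled ones. The low groups did not overlap the high ones, with a log2 fold change of 3.58 in the labelled B cells (adjusted p = 6.37e-12 from limma), where the low level was just above the background. In the activated-T-labelled arrays its mean was below the background, and it was at least 13.98-fold lower there than in the resting-T-labelled ones (adjusted p = 2.71e-12 from limma). Fads1 differed by 1.43 and -2.37, and Slc25a1, which exports citrate from mitochondria, by 1.63 and -2.05. The lower gene in the labelled B cells was Acss2, which makes acetyl-CoA from acetate (-1.22, adjusted p = 2.41e-06 from limma).

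Further LXR targets did not move as a block. Apoe, the apolipoprotein that accepts cholesterol from ABCA1, was at 8.53, 8.77 and 8.44 log2, 7.23, 7.30 and 7.16 log2, 7.36, 7.05 and 7.45 log2 and 9.51, 9.26 and 9.65 log2 in the resting-B-, activated-B-, resting-T- and activated-T-labelled arrays, and so followed Abca1, with log2 fold changes of -1.35 and 2.19. It is also a gene of macrophages, and their part in its level was not tested. Smpdl3a, a phosphodiesterase gene, was also lower in the arrays labelled activated in the labelled B cells and higher in the labelled T cells (-2.46 and 1.76). It was nonetheless higher in the resting-B-labelled arrays than in the activated-T-labelled ones by 1.96. Lpcat3, which builds polyunsaturated phospholipid, ran with the synthesis genes (1.19 and -0.95). Pltp, a phospholipid transfer protein gene, was called in neither of these comparisons and was at 6.53 ± 0.06 (SD, n = 3) log2 and 6.34 ± 0.26 log2 in the resting- and activated-B-labelled arrays against 7.56 ± 0.49 log2 and 7.59 ± 0.05 log2 in the resting- and activated-T-labelled arrays.

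Over the 12 arrays, the genes whose levels ran closest to the mean of the 16 sterol synthesis genes were Pgam1, Gas2l3, Kif24, Stard4 and Rad54b, with Pearson's r between 0.9955 and 0.9963. Pgam1 encodes an enzyme of glycolysis, Kif24 a kinesin and Rad54b a protein of recombination repair. Since the arrays fall into separate groups, such an r mostly carries the difference between those groups and is given as a description.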

How the data were processed

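Total RNA of 12 samples was labelled with a whole transcript kit and hybridised to an Affymetrix mouse gene array with 1 colour. The table deposited by the authors gives log2 expression made with RMA, per the submitters' processing notes. Its version is not given in the sources used here. Array medians lay between 5.50 and 5.68 log2. Precision is limited by the number of arrays, and differences are compressed near the background.

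Of 34760 probe sets, 21640 carried 1 gene symbol, 1321 several and 11799 none, and genes were named only from the first kind. For 954 genes several such probe sets existed, of which that with the greatest mean was kept. Gene identifiers of 21553 of these probe sets were found in the RefSeq gene table, which changed 0 symbols.

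Groups and replicate numbers come from the labels, which name no batch. In limma (version 3.58.1, under R version 4.3.3), lmFit and eBayes were run on all 19937 genes with 4 group means and 8 residual degrees of freedom, for the 6 pairs of groups and the interaction. The fit was tested on simulated data with known changes. Each member is accounted for. Values on every array are given for 14 members named by role and the 3 with the largest change in each list, and Fdft1 was added after its values were seen. Of each list of non-members the 4 with the largest change in any pair of groups, and Ggps1 and Apoe by role, were to be named. A further gene chosen by role is not analysed here, and Mbtps1 and the markers named singly were added after their values were seen. The members, lists and motifs were chosen with earlier results of these data known.

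Same-numbered arrays deviated together from their group means in the labelled T cells (r = 0.22, 0.16 and 0.23 over 12170 genes above the background). In the labelled B cells those numbered 3 did so (r = 0.25), and those numbered 1 and 2 had r near 0 (-0.06 and 0.06). Resting replicate 2 with activated replicate 1 had r = 0.15 there, and resting replicate 1 with activated replicate 2 had r = 0.13. The other unlike-numbered pairs of the labelled B cells had negative r, so whether the numbers pair these arrays is not settled. The reported values come from the model that ignores the number. Promoters were those of the RefSeq table, cut to the 250 bases before the start, and the promoters printed were picked after the expression values were seen. Summaries used pandas (version 2.3.3) and numpy (version 2.4.6) under Python (version 3.11.15), and plots used matplotlib (version 3.10.9).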

Additional observations from a re-analysis of the deposited data

Results flagged for a closer look

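For 29 of the 32 genes, the difference between the arrays labelled activated and resting was itself different in the labelled B and T cells, by the interaction test of limma over all genes (adjusted p at most 0.000194). The values are the log2 fold change in the labelled B cells minus that in the labelled T cells, and in each of these genes the fold changes had opposite signs. The B and T cell markers go against the labels. The 5 measured dividing cell markers also had fold changes of opposite sign, with medians of 4.02 log2 in the labelled B cells and -3.87 log2 in the labelled T cells. Over all genes, 19.7% were called higher in the former comparison and 17.8% lower in the latter. The values therefore hold for the labels, and the part of division in them was not tested.

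Among the early sterol enzymes the difference was 4.10 for Hmgcs1, 1.51 for Mvk, 2.13 for Pmvk, 2.37 for Mvd, 6.07 for Idi1 and 5.04 for Fdps. From squalene to cholesterol it was 4.21 for Fdft1, 5.44 for Sqle, 4.39 for Lss, 5.22 for Cyp51, 4.61 for Msmo1, 3.48 for Nsdhl, 3.49 for Hsd17b7, 1.17 for Ebp, 2.92 for Sc5d and 2.44 for Dhcr7. Among the genes of SREBP control it was 1.28 for Srebf1, 1.06 for Srebf2, 3.98 for Insig1 and 3.96 for Stard4. For fatty acid synthesis it was 1.34 for Acly, 2.57 for Acaca, 3.07 for Fasn, 6.21 for Scd2 and 2.81 for Elovl6. The sign was negative for LXR and efflux, with -0.96 for Nr1h3, -5.94 for Abca1, -2.95 for Abcg1 and -6.04 for Mylip. The levels of Nr1h3 are too low to give its value as a size, and that of Abca1 rests on resting-T-labelled arrays with a mean below the background, with -5.85 when an array under the background is set to it.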

How the results depend on the processing

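Alternatives were median or 75th percentile centring of each array, quantile normalization, a filter on genes at or below the background, averaging a gene's probe sets, fitting only the arrays compared (not run for the interaction), a trended and robust variance model, array weights, a replicate block, and the omission of single arrays. Of 4187 fold changes recomputed, 4112 kept their direction and side of the threshold, 57 lost the call, 5 gained it (all Acss2 in the labelled T cells) and 13 changed sign. Those that changed sign were not called in the reported fit. With quantile normalization, Scap went to -0.0851 and Insig2 to -0.0865 in the labelled B cells and Insig2 to 0.0539 in the labelled T cells. With array weights Insig2 went to -0.0005 in the labelled B cells and Pltp to -0.1066 in the labelled T cells, and with median centring Pltp went to -0.0744. Without single arrays the ranges were -0.0079 to 0.0889 for Scap and -0.0239 to 0.1128 for Insig2 in the labelled B cells, -0.0683 to 0.0316 for Insig2 and -0.1897 to 0.2979 for Pltp in the labelled T cells, and -0.6843 to 0.0506 for Scd1 in the interaction.

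With the replicate block, 30 of the 32 genes were called in the labelled B cells, 30 in the labelled T cells and 29 in the interaction, as without it, and it changed no call of these genes there. It could not be fitted between the labelled B and T cells, which share no numbers. Without single arrays, the called genes of the 32 numbered 30 in the labelled B cells, 29 to 30 in the labelled T cells, 8 to 14 between the activated-B- and resting-T-labelled arrays, and 7 to 13 between the resting-B- and activated-T-labelled arrays. Calls also lost under other settings were Acaca with quantile normalization (adjusted p = 0.0548) and Msmo1 with median centring (0.053) between the activated-B- and resting-T-labelled arrays, Fdft1 with quantile normalization (0.0551) and array weights (0.0703) between the resting-B- and activated-T-labelled arrays, and Nr1h3 with quantile normalization (0.0599) between the activated-B- and activated-T-labelled arrays. Ebp (0.0727 and 0.0871) and Elovl6 (0.0767 and 0.0861) between the resting-B- and resting-T-labelled arrays lost theirs with only the arrays compared and with array weights, as did Ebp with quantile normalization (0.0959). Npc2 in the labelled B cells lost its call in 6 fits (adjusted p up to 0.424). All p-values are from limma. The cause of these changes was not tested. Median centring moved all genes by 0.11 log2 in the labelled B cells, -0.10 in the labelled T cells and 0.13 between the activated-B- and activated-T-labelled arrays. With 3 arrays a group and levels near the background for Nr1h3, small differences cannot be resolved.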
